A study of Mus musculus with 10 samples.

Results

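The major urinary protein genes described here are Mup1, Mup3, Mup7, Mup10, Mup11, Mup12, Mup17, Mup20 and Mup21, 9 listed genes whose Ensembl identifiers in the deposited tables were matched to mouse symbols. They were 9 of 48 Mup genes and pseudogenes in tables of 41388 genes. The other Mup entries were 12 protein-coding genes and 27 pseudogenes. The data were RNA-seq read counts from the liver of 10 mice aged 10 weeks, from a study of reciprocal crosses between an obese strain, BFMI860-12/Hber (Berlin Fat Mouse Inbred, BFMI), and the lean strain C57BL/6NCrl (B6N). In the 3 matBFMI F1 males the mother was BFMI and the father B6N, and in the 3 patBFMI F1 males the parents were exchanged. Each inbred strain gave 1 male and 1 female. F1 males ate a high fat diet from day 21 to day 70. For the inbred animals the sample records name a standard breeding diet, whereas the study's text says they were raised on a high fat diet, so that cross and diet cannot be told apart when F1 and inbred animals are compared.

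Major urinary proteins are small lipocalins that hepatocytes secrete into the blood and the kidney passes into urine, where they carry volatile pheromones in a hydrophobic pocket. Adult male mice make far more of them than females, because pulses of growth hormone acting through STAT5B, together with androgens and glucocorticoids, drive the genes in male liver. The genes form a tandem cluster on chromosome 4, in which a central group of near-identical copies is flanked by more diverged genes. Mup20 encodes darcin, a male-specific protein that attracts females and promotes learning of a male's scent.

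All 9 genes lay on the minus strand of chromosome 4 in the GENCODE M21 annotation (GRCm38). Mup7 was at chr4:60066469-60070475, followed by Mup1 at chr4:60498012-60501960, Mup10 at chr4:60578260-60582199, Mup11 at chr4:60658466-60662411 and Mup12 at chr4:60737383-60741326. Mup17 was at chr4:61591929-61595871. The last 3 in order of position were Mup20 at chr4:62050234-62054158, Mup3 at chr4:62083476-62087342 and Mup21 at chr4:62147932-62150863.

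The copies were so alike that they limited what a read could be assigned to. To show this, a window of 60 coding bases in exon 2 is given for each gene on the coding strand, as the stretch within 1 exon with the most bases that differ between Mup20 and Mup7. Capitals mark the bases that differ from Mup7. The Mup7 window was at chr4:60069777-60069836, that of Mup20 at chr4:62053524-62053583, and those of Mup3 and Mup21 at chr4:62086844-62086903 and chr4:62150239-62150298.
Mup7: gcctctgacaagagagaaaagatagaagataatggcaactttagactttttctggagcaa
Mup1: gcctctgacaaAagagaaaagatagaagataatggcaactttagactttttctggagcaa
Mup10: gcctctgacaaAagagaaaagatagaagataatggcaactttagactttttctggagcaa
Mup11: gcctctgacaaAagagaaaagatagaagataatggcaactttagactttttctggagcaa
Mup12: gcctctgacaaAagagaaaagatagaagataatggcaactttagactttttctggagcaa
Mup17: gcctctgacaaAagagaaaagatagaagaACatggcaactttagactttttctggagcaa
Mup20: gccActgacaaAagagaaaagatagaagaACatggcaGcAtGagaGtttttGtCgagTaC
Mup3: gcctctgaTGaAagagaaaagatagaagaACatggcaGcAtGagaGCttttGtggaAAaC
Mup21: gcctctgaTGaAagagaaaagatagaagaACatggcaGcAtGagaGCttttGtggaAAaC
In this window Mup1, Mup10, Mup11 and Mup12 had the same sequence and differed from Mup7 at 1 base, Mup17 differed at 3, Mup20 at 12, and Mup3 and Mup21, which had the same sequence as each other, at 14.

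Over the whole coding sequence the 9 genes fell into a central group and 3 diverged genes. Mup1, Mup7, Mup10, Mup11, Mup12 and Mup17, called the central genes below, were 98.7% to 99.63% identical to each other, with 2 to 7 base differences per pair. Mup20 was 90.37% to 91.34% identical to them. Mup3 and Mup21 were 83.89% to 84.81% and 84.07% to 85% identical to them, and 96.32% identical to each other, with 20 differences over 543 bases. Of all 100-base windows of a gene's transcript, 97.06% in Mup3 and 95.5% in Mup21 occurred in no other gene's transcript. The share was 61.16% in Mup20, 40.58% in Mup17, 22.49% in Mup12, 18.42% in Mup7, 16.49% in Mup11, 14.61% in Mup10 and 11.67% in Mup1. A single 100-base window could be shared by up to 16 genes. The values of Mup3, Mup21 and, less so, Mup20 therefore rest on sequence of their own, whereas the central genes are uncertain as single genes. How reads with several matching places were assigned was not given in the sources used here, and the reference is C57BL/6J, so that copies carried by BFMI but not by the reference were not seen as such.

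**Figure D1:**
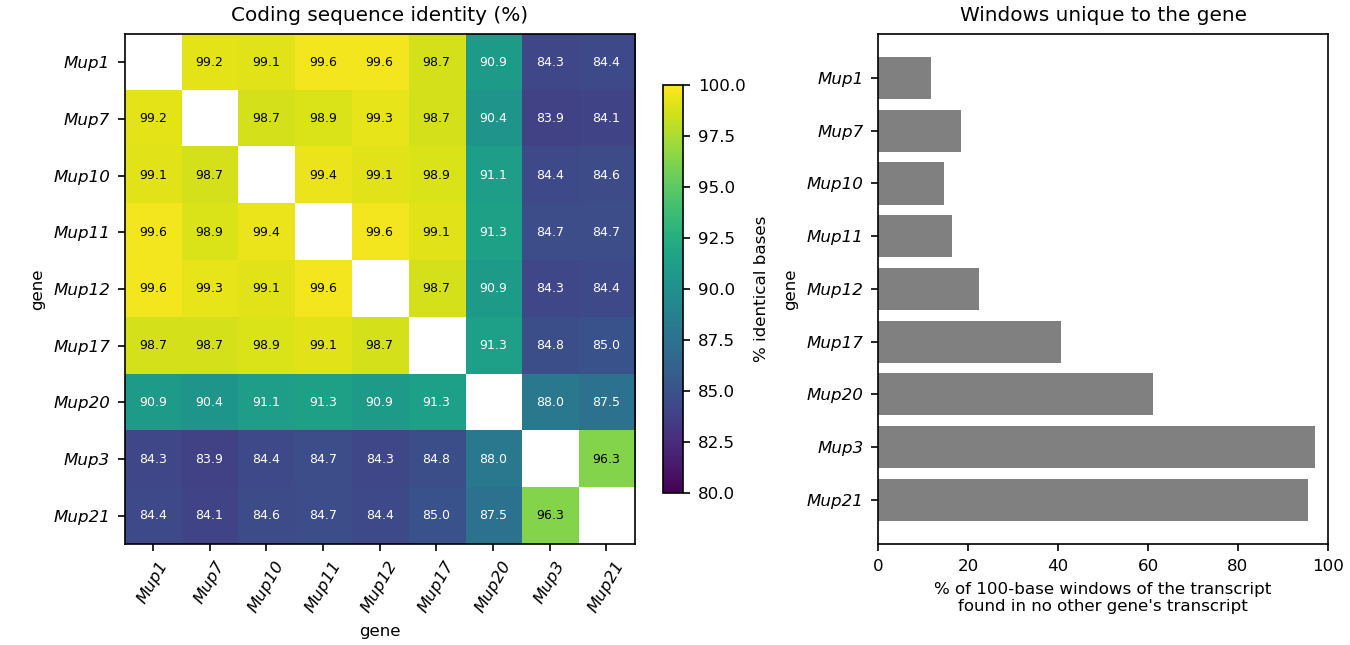
Percent identity of the coding sequences of each pair of the 9 genes (left, colour and number) and the percent of 100-base windows of each gene's transcript found in no other gene's transcript (right, bars). The 6 central genes form a block at or above 98.7% identity and have 11.67% to 40.58% unique windows, against 61.16% in Mup20 and over 95% in Mup3 and Mup21.

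The stretch before the start of transcription was given by RefSeq (GRCm38.p6) for 6 of the 9 genes, Mup3, Mup7, Mup10, Mup11, Mup17 and Mup21, matched by symbol. The 250 bases before the annotated start of a central gene and of the 2 diverged genes with unique sequence are printed from 5′ to 3′ on the gene's strand, at chr4:61595833-61596082, chr4:62087318-62087567 and chr4:62150842-62151091. Capitals mark TATAAG, the core of a TATA box.
Mup17: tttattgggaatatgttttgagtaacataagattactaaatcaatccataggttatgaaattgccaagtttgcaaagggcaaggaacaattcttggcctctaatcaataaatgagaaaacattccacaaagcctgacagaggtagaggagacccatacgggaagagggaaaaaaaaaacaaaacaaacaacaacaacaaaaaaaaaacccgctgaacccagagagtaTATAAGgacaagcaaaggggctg
Mup3: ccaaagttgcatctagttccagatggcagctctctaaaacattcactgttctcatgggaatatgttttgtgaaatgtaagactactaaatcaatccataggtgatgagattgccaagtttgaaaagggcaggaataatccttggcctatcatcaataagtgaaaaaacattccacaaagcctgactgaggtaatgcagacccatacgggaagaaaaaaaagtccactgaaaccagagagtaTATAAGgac
Mup21: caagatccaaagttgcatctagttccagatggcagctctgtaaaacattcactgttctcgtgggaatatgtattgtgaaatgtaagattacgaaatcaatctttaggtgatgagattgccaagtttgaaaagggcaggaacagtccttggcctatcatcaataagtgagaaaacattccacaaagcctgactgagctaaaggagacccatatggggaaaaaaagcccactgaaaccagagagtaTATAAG
TATAAG was searched on the gene's strand, after the windows had been read, in windows of 300 bases, which take in 50 bases after the start. It occurred in 5 of the 6 windows, in all but that of Mup7, and in 4.42% of 32851 such windows of all genes. Counted from the annotated start, its first base was at -28 in Mup10, -23 in Mup17, -9 in Mup3, -6 in Mup21 and 0 in Mup11. Its distance from the annotated start thus differed between the genes. The last bases before the annotated start of Mup7 recur in Mup17 more than 50 bases before TATAAG. The Mup7 window thus need not reach that position and does not show that Mup7 lacks TATAAG. The STAT5 motif TTCNNNGAA, which reads the same on both strands, was in none of the 6 windows and in 8.298% of all windows. These letters were thus not in the windows of the 6 genes, which for Mup7 cover a different stretch, and this says nothing of sites further away.

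Depth was 46988713 to 58955349 assigned reads in 9 libraries and 96023811 in that of the BFMI male. In patBFMI 1 a count was seen for 32421 genes, against 22095 to 26694 in the other 5 F1 libraries. All matBFMI libraries were on lane 6, all patBFMI libraries on lane 5, the BFMI male on lane 1 and the other 3 inbred animals on lane 4, which means that cross and lane cannot be told apart. The sex labels fitted Xist, at 315.1 and 372 CPM in the females and at most 1.31 CPM in males, and the Y-linked Uty, at 0.08 CPM in both females and at least 24.8 CPM in males. Levels are in CPM, the usual scale of a gene's counts relative to the library's total, after TMM scaling over the 10 libraries, and tests were those of edgeR's quasi-likelihood method with Benjamini-Hochberg adjustment over all genes and a threshold of 0.05. The F1 males of each group came from 3 mothers, so that p-values measure the spread between single offspring.

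The 9 genes took a large share of the liver's reads in every library, and the share varied with sex and cross. They held 1.284% of assigned reads in the B6N female and 2.763% in the BFMI female. In the inbred males they held 4.486% (B6N) and 3.497% (BFMI). The share was 4.912%, 4.283% and 3.139% in the matBFMI males and 6.489%, 6.248% and 5.418% in the patBFMI males. All 3 patBFMI males were above the other 7 libraries, and the B6N female was the lowest. With the other Mup genes and pseudogenes included, the share ran from 2.724% in the B6N female to 14.4% in patBFMI 1.

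Levels of different genes were compared only per length, in the deposited RPKM, which the authors computed after quantile normalization between samples. Mup7 was the highest of the 9 in patBFMI, at 13994 ± 2780 RPKM (SD, n = 3), in matBFMI, at 9299 ± 604.1 RPKM (SD, n = 3), and in the B6N male, at 8805 RPKM. It was only the fifth in both the B6N female and the BFMI male, at 1149 and 4673 RPKM. Mup21 was the lowest in every group, at 249.7 ± 77.6 RPKM in matBFMI and 378.8 ± 122.3 RPKM in patBFMI (SD, n = 3 each). Mup20 was second in the B6N male, at 7538 RPKM, and the eighth in each of the 3 other inbred animals and in patBFMI. In patBFMI the next genes below Mup7, Mup17 and Mup12 were Mup3, Mup10 and Mup1, which were at 5039 ± 760.7, 5014 ± 351.1 and 4918 ± 441.9 RPKM (SD, n = 3 each) and did not differ beyond their spread.

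**Figure D2:**
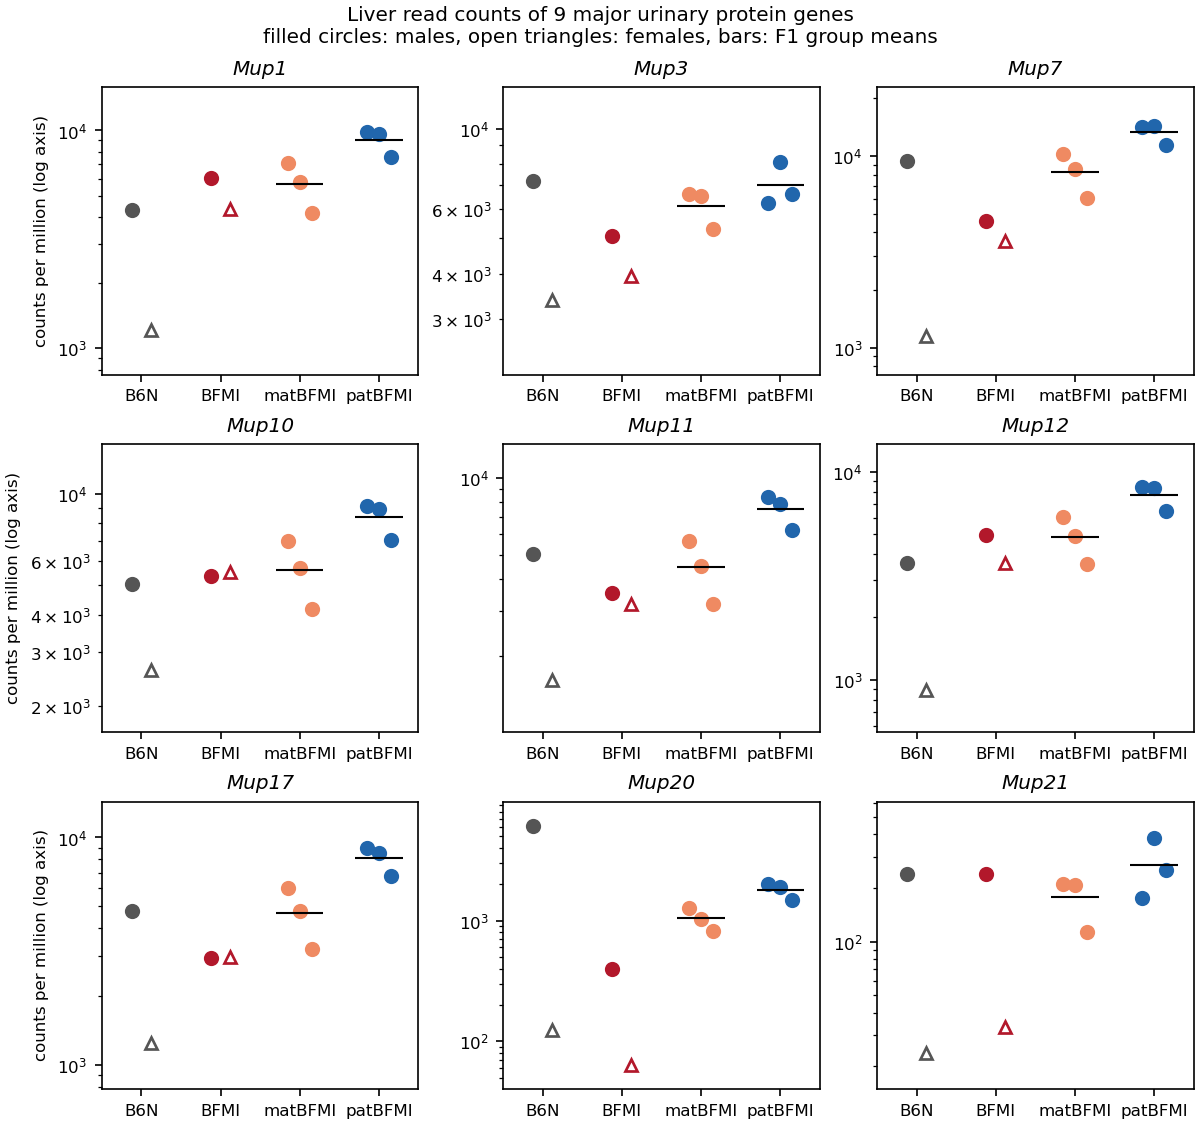
Level in CPM of each of the 9 genes (log axis, own range per panel) in the 10 liver libraries by strain or cross, with males as filled circles, females as open triangles and F1 group means as bars. The patBFMI males lie above the matBFMI males in 7 panels and overlap them in Mup3 and Mup21, and Mup20 is far higher in the B6N male than in any other library.

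The first comparison was that of the F1 males, which share both parental genomes apart from the sex chromosomes and mitochondria and differ in which parent was BFMI. All 9 genes had lower counts in matBFMI males than in patBFMI males, by 1.15-fold in Mup3, which had the opposite sign on the deposited RPKM, and by 1.5- to 1.76-fold in the other 8. None of the 9 passed the adjusted threshold of edgeR, although 7 had an unadjusted p under 0.05.

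Mup20, which encodes darcin, was at 1282, 1029 and 823.9 CPM in the matBFMI males and at 2006, 1904 and 1476 CPM in the patBFMI males. The 2 groups did not overlap, and the mean of matBFMI, 1045 ± 229.7 CPM, was 58.2% of that of patBFMI, 1795 ± 281.7 CPM (SD, n = 3 each). The log2 fold change was -0.79 ± 0.18 (SE), with an adjusted p of 0.171 from edgeR, the smallest of the 9 genes. Mup7, a central gene, was at 10217, 8579 and 6026 CPM in matBFMI and at 14224, 14288 and 11401 CPM in patBFMI. Here too every matBFMI male was below every patBFMI male, with a log2 fold change of -0.70 (95% confidence interval -1.11 to -0.29). The other central genes had log2 fold changes between -0.82 in Mup17 and -0.59 in Mup10, and in each of them the groups did not overlap. On the deposited RPKM the differences were smaller, at -0.20 in Mup1, -0.13 in Mup10, -0.15 in Mup12, -0.28 in Mup11 and -0.40 in Mup17, and the groups overlapped in Mup1, Mup10 and Mup12.

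The 2 genes with nearly unique sequence outside this pattern were Mup3 and Mup21. Mup3 was at 6606, 6516 and 5287 CPM in matBFMI and at 6228, 8112 and 6591 CPM in patBFMI, so that the groups overlapped. Its log2 fold change was -0.20 (95% confidence interval -0.47 to 0.08) and 0.54 on the deposited RPKM. Mup21 was at 211.7, 207.6 and 113.8 CPM in matBFMI and at 175, 381.2 and 250.9 CPM in patBFMI, also with overlap. Its log2 fold change was -0.61 (95% confidence interval -1.28 to 0.07).

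Counted over the 9 genes, 0 were called by edgeR, where 0.0476% of the 16797 genes tested were called lower in matBFMI. At an unadjusted p under 0.05, 7 of the 9 were lower, against 4.7% of all genes. In 7 of the 9 every matBFMI library was below every patBFMI library, against 7.07% of all genes. On the deposited RPKM this held for 4 of the 9, Mup7, Mup11, Mup17 and Mup20. DESeq2 called the same 7, all but Mup3 and Mup21, with 0.924% of the genes it tested called lower. The median log2 fold change of the 9 genes was -0.69, against -0.0052 over all genes tested. Because the central genes share most of their sequence, these 7 are not 7 independent measurements. On the deposited RPKM the median was -0.28 and 0 of the 9 genes were called. Without patBFMI 1 the median was -0.63 and 8 of the 9 had an unadjusted p under 0.05.

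Summed over the 9 genes, the counts were 50100, 41991 and 30610 CPM in matBFMI and 67479, 68079 and 53806 CPM in patBFMI. The groups did not overlap in the sum. The matBFMI mean was 0.648 ± 0.176 of the patBFMI mean (SD propagated from 3 animals each), and 0.631 when all Mup genes and pseudogenes were summed. In bulk liver, fewer cells that make a transcript and less transcript per cell cannot be told apart. The 7 hepatocyte markers, of which Alb held most of the counts, summed to 72502 to 81139 CPM in matBFMI and 66603 to 76582 CPM in patBFMI, with a median log2 fold change of -0.0056. None of them was called, and 2, Fgb at -0.38 and Apoa1 at -0.27, had an unadjusted p under 0.05 with every matBFMI male below every patBFMI male. The 7 Kupffer cell and macrophage markers summed to 173.4 to 196.1 CPM in matBFMI and 217.5 to 225.2 CPM in patBFMI. Their 6 liver endothelial counterparts summed to 240 to 266.5 and 241.6 to 290.6 CPM, the 6 stellate cell markers to 313.6 to 343.3 and 309.3 to 351.8 CPM, the 6 cholangiocyte markers to 33.2 to 38.5 and 31.7 to 32.9 CPM, and the 5 erythroid markers to 544.8 to 585.8 and 521.6 to 600.6 CPM. The summed macrophage markers were thus lower in every matBFMI male, as were 7 of the Mup genes, and the summed cholangiocyte markers were higher. Of the 7 macrophage markers 0 were called, and 5 were lower at an unadjusted p under 0.05, against 4.7% of all genes. In Cd5l and Marco the groups overlapped. Of the 6 cholangiocyte markers 0 were called and 0 had an unadjusted p under 0.05. Their median log2 fold change was 0.084, and 2 of them were below 0. The part of these cells in the result was not tested.

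**Figure D3:**
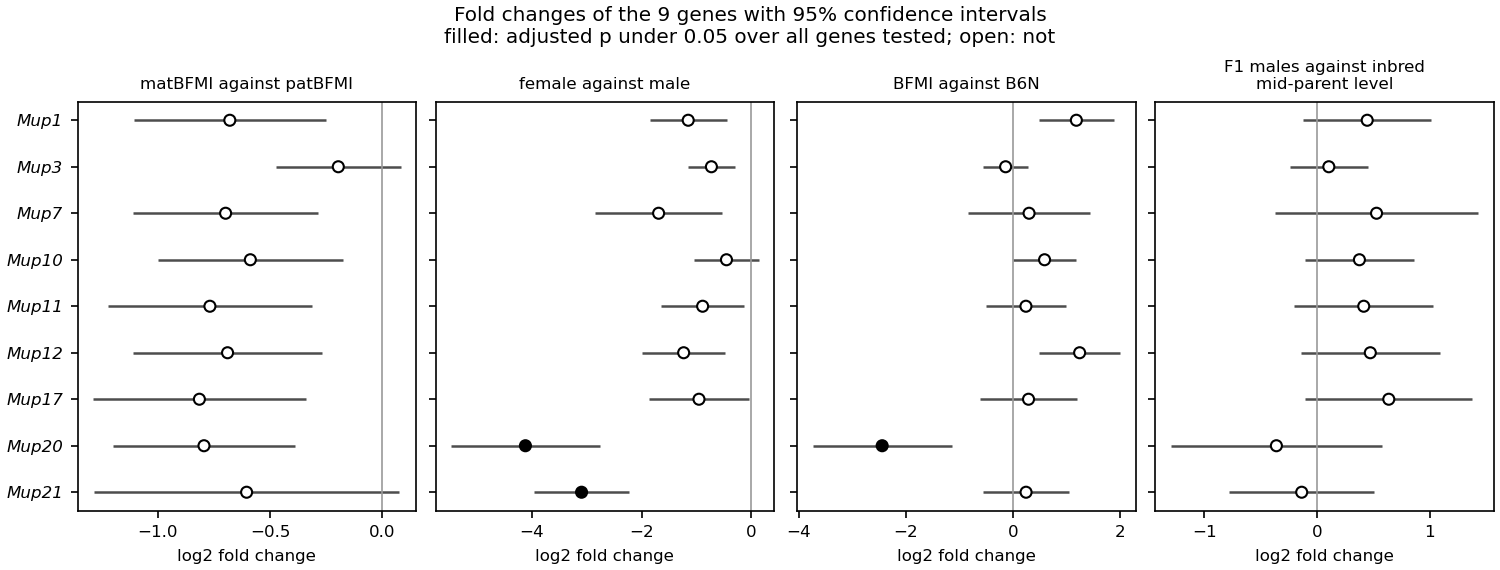
Log2 fold changes of the 9 genes with 95% confidence intervals in 4 comparisons (x axis, own range per panel), filled where the adjusted p over all genes was under 0.05. All 9 points are below 0 in matBFMI against patBFMI (on the deposited RPKM Mup3 was at 0.54) and in female against male, and the filled points are Mup20 and Mup21 in the sex comparison and Mup20 in the strain comparison.

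Sex was compared in the inbred animals, 2 females against 2 males in a fit of all 10 libraries by group and sex. Mup20 and Mup21, 2 of the diverged genes, were lower in females. The other 7 were lower in the fit but did not pass the adjusted threshold.

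Mup20 was at 6044 CPM in the B6N male and at 124.9 CPM in the B6N female. In BFMI it was at 397.5 CPM in the male and at 64.3 CPM in the female. Both males were above both females. The log2 fold change of females over males was -4.11 (95% confidence interval -5.46 to -2.76, adjusted p 0.0182, edgeR), or 17.3-fold. Without either B6N library it was -2.63 or -2.62, and without either BFMI library it was -5.62 or -5.60, each with an adjusted p of at most 0.0245.

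Mup21 was at 238.9 CPM in the B6N male and 240 CPM in the BFMI male, and at 23.8 CPM in the B6N female and 33.1 CPM in the BFMI female. The 2 males were nearly equal and the 2 females were much lower, with a log2 fold change of -3.09 (95% confidence interval -3.96 to -2.23, adjusted p 0.00995, edgeR), or 8.52-fold. The call was lost without the B6N male or the B6N female, at an adjusted p of 0.151 and 0.141, with fold changes that stayed at -2.86 and -2.85. Mup3, whose coding sequence is closest to that of Mup21, was at 7190 and 5067 CPM in the males and 3374 and 3934 CPM in the females of B6N and BFMI. Its log2 fold change was -0.73 (95% confidence interval -1.16 to -0.30), with an adjusted p of 0.189. In the fit the confidence intervals of Mup3 and Mup21 did not overlap, and the difference between them was not tested.

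Over the 9 genes, 2 were called lower in females, against 0.245% of the 19974 genes tested, and 8 had an unadjusted p under 0.05 with lower counts in females, against 3.96% of all genes. The exception was Mup10, with a log2 fold change of -0.45 (95% confidence interval -1.04 to 0.13). The median of the 9 was -1.15, and 0.028 over all genes tested. Without the BFMI male or the BFMI female 5 of the 9 were called, and without the B6N male or the B6N female 1 was. Of the marker lists, all 5 erythroid markers were below 0 in females, with a median of -0.58, 1 called (Alas2) and 4 at an unadjusted p under 0.05, and their sums were 224.7 and 732.2 CPM in the B6N and BFMI females and 394.2 and 917.3 CPM in the males. Of the 7 macrophage markers 6 were above 0 in females, with 0 called and 2 at an unadjusted p under 0.05, and sums of 366.5 and 266.9 CPM in the females and 346.7 and 201.7 CPM in the males. The part of these cells in the sex difference was not tested.

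In the central genes the males and females were far apart in B6N and close in BFMI. In B6N the male was above the female by 8.16-fold in Mup7, 4.05-fold in Mup12, 3.79-fold in Mup17, 3.55-fold in Mup1, 3.1-fold in Mup11 and 1.92-fold in Mup10. In BFMI the same ratios were 1.27, 1.36, 0.991, 1.39, 1.1 and 0.976. The BFMI male and female thus differed little in all 6, and Mup10 and Mup17 had slightly more CPM in the female, although Mup10 was higher in the male on the deposited RPKM, at 5127 against 4746. Mup20 and Mup21 kept a male excess in both strains, of 48.4- and 6.18-fold in Mup20 and of 10- and 7.24-fold in Mup21 for B6N and BFMI. Without the B6N male or the B6N female, the sex difference of Mup10 and Mup17 in the fit was at 0.04 and 0.02 or less, on the other side of 0.

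A test of strain by sex asked whether the sex difference differed between the strains. All 9 genes had a positive log2 interaction, that is a smaller male excess in BFMI, from 0.47 in Mup21 to 2.97 in Mup20. None passed the adjusted threshold of edgeR, where 0.03% of genes were called in either direction. At an unadjusted p under 0.05, 7 of the 9 were positive, against 3.92% of all genes. Mup20 had an interaction of 2.97 (95% confidence interval 1.98 to 3.96, adjusted p 0.117), and Mup7 one of 2.68 (1.68 to 3.68, adjusted p 0.169). Without patBFMI 1 the interaction of Mup20 was called, at an adjusted p of 0.048. With 1 library per strain and sex, strain and sex are single animals here, the spread came from the F1 males, and the BFMI male was also on a lane of its own and the most deeply sequenced. The smaller sex difference in BFMI was not particular to the Mup genes. All 13 genes of the list of other male-biased liver genes, described below, had a positive interaction, with a median of 1.40, where 54.2% of all genes had a negative one. Of the 13, 8 were positive at an unadjusted p under 0.05, against 3.92% of all genes. The female-biased list was mixed. Of its 18 genes, 12 had a negative interaction and 6 a positive one, with a median of -2.24. That count was near the 54.2% negative over all genes and by itself does not set this list apart.

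**Figure D4:**
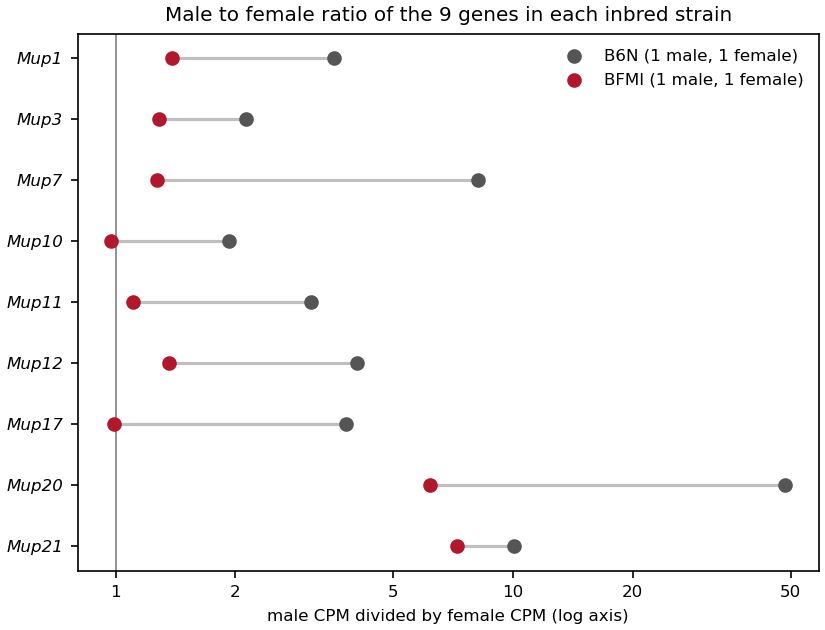
Male CPM divided by female CPM (log axis) of each of the 9 genes in B6N (grey) and BFMI (red), each from 1 male and 1 female. The ratio is higher in B6N for all 9 genes, near 1 in BFMI for the 6 central genes and above 6 in both strains for Mup20 and Mup21.

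The comparison of the inbred strains asked how the obese and the lean parent differed. Mup20 was lower in BFMI than in B6N, and no other of the 9 passed the threshold in the fit of all 10 libraries. The B6N male, at 6044 CPM, was 15.2-fold above the BFMI male, at 397.5 CPM, whereas the BFMI female had 0.515 of the level of the B6N female. The log2 fold change of BFMI over B6N was -2.45 (95% confidence interval -3.74 to -1.15, adjusted p 0.033, edgeR), where 6.67% of all genes were called in either direction. Among males only it was -3.92 (adjusted p 4.9e-04), where each strain is 1 animal assumed to vary like the F1 males. The call was close to the threshold. It was lost without the B6N male, at -0.96 with an adjusted p of 0.172, and without the BFMI male, at -0.93 with 0.174. It was also lost without matBFMI 2 or matBFMI 3, with adjusted p of 0.0547 and 0.0536, and on the deposited RPKM, with 0.0724. Without the B6N male or the BFMI male, 3 other genes, Mup1, Mup7 and Mup12, were called higher in BFMI, at 1.63 to 2.05, where the strain left with its female is assumed to vary like the other groups. Without matBFMI 1 or patBFMI 1 Mup1 was called higher beside Mup20, and without matBFMI 2 or matBFMI 3 0 were called. The 5 erythroid markers summed to 917.3 and 732.2 CPM in the BFMI male and female and to 394.2 and 224.7 CPM in B6N, with 4 called higher in BFMI. The 7 macrophage markers summed to 201.7 and 266.9 CPM in BFMI and to 346.7 and 366.5 CPM in B6N, with 3 called lower, and the part of these cells in the Mup20 result was not tested.

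Mup1 and Mup12 had the opposite direction. Mup1 was at 6079 and 4382 CPM in the BFMI male and female and at 4298 and 1210 CPM in the B6N male and female. Mup12 was at 4974 and 3647 CPM in BFMI and at 3633 and 896.1 CPM in B6N. Each BFMI animal was above the B6N animal of its sex, by 1.41- and 3.62-fold in Mup1 and by 1.37- and 4.07-fold in Mup12 for males and females. The log2 fold changes of 1.18 and 1.24 had adjusted p of 0.0537 and 0.061. Mup3 differed by -0.14 (95% confidence interval -0.57 to 0.28) and Mup21 by 0.24 (-0.56 to 1.04). In Mup7, Mup11 and Mup17 the 2 sexes had opposite directions: the BFMI male had 0.485, 0.703 and 0.623 of the level of the B6N male, and the BFMI female was 3.11-, 1.98- and 2.38-fold above the B6N female. Their fitted log2 fold changes, 0.24 to 0.30, changed sign among males only, to between -1.04 and -0.51, and that of Mup11 was at -0.06 on the deposited RPKM.

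Shares within the 9 genes do not depend on library scaling. Of the shares given here, that of Mup1 set the strains apart in both sexes. In Mup20 the B6N male stood out, and in Mup7 the 2 B6N animals lay on either side of those of BFMI. Mup20 made up 13.3% of the summed CPM of the 9 in the B6N male, 1.02% in the B6N female, 1.2% in the BFMI male and 0.235% in the BFMI female. In the F1 males it made up 2.45% to 2.69% in matBFMI and 2.74% to 2.97% in patBFMI, far closer to each other than the inbred males were. Mup1 made up 18.3% and 16% in the BFMI male and female, 9.43% and 9.86% in the B6N male and female and 13.6% to 14.6% in the F1 males, between the strains. Mup7 made up 20.6% in the B6N male, 9.4% in the B6N female, 13.8% and 13.1% in the BFMI male and female and 19.7% to 21.2% in the F1 males. The widest gap between the crosses in percentage points was that of Mup3, whose share was 13.2%, 15.5% and 17.3% in matBFMI and 9.23%, 11.9% and 12.2% in patBFMI. No other of the 9 genes had mean shares in the 2 crosses more than 2 percentage points apart.

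**Figure D5:**
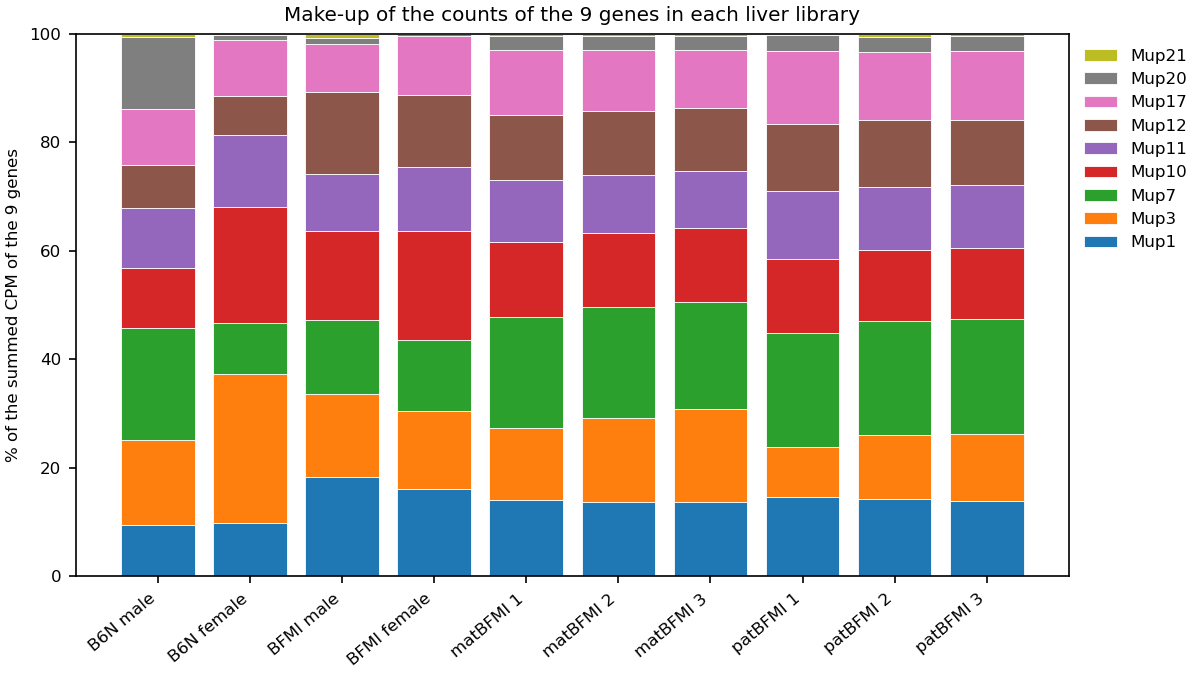
Percent of the summed CPM of the 9 genes (y axis) that each gene held in each of the 10 liver libraries (stacked bars, 1 colour per gene). Mup20 stands out in the B6N male at 13.3%, and in the F1 males the Mup3 share is larger in matBFMI.

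F1 males were also set beside the mid-point of the inbred strains, with sex in the fit. None of the 9 genes passed the threshold, where 2.05% of genes were called in either direction. The unadjusted p was above 0.05 for all 9. Log2 fold changes were 0.11 to 0.64 for 7 genes, of which Mup3 was at -0.02 on the deposited RPKM, -0.36 for Mup20 (95% confidence interval -1.30 to 0.58) and -0.14 for Mup21. In Mup20 all 6 F1 males, at 823.9 to 2006 CPM, lay between the BFMI male and the B6N male and below the mean of the 2, which was 3221 CPM. In the central genes the patBFMI males were above both inbred males in CPM, with Mup17 at 6792 to 8990 CPM against 4738 and 2952 CPM. On the deposited RPKM this did not hold in Mup1 and Mup10. There the lowest patBFMI males, at 4455 and 4653 RPKM, were below the BFMI male, at 4870 and 5127 RPKM. In Mup11 the lowest patBFMI male, at 3368 RPKM, was level with the B6N male, at 3367 RPKM. The values rested on single inbred males: without the BFMI male the 7 positive values turned to between -0.69 and -0.12, and without the B6N male Mup20 was at 1.3, Mup21 at 0.10 and 1 gene, Mup17, was called.

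The pseudogene Mup-ps19, at chr4:61957149-61959911, followed Mup20 in all libraries. It shared 76.67% of its 100-base windows with the Mup20 transcript, and Mup20 shared 38.84% of its windows with it. Mup-ps19 was at 2307 and 49.2 CPM in the B6N male and female, at 158.4 and 25.7 CPM in the BFMI male and female, at 319.3 to 492.2 CPM in matBFMI and at 560.7 to 748.5 CPM in patBFMI. The ratio of Mup20 to Mup-ps19 stayed between 2.5 and 2.68 while Mup20 itself ran from 64.3 to 6044 CPM. Mup-ps19 was called in the same 2 comparisons as Mup20, with log2 fold changes of -4.09 for sex and -2.41 for strain. Its counts cannot be told apart from reads of Mup20 where the sequence is shared.

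Of the other Mup genes and pseudogenes, 34 were tested in the F1 males, 0 were called by edgeR, 20 had an unadjusted p under 0.05 and lower counts in matBFMI, against 4.7% of all genes, and the median log2 fold change was -0.50. The 5 with the highest mean were Mup15, Mup9, Mup19, Mup2 and Mup14. In each of them every matBFMI library was below every patBFMI library, against 7.07% of all genes. Mup15, for instance, was at 4260 to 7412 CPM in matBFMI and 8090 to 10541 CPM in patBFMI. A 100-base window of a central gene could be shared by up to 16 genes. The counts of these other Mup entries thus cannot be taken as independent of those of the central genes. Between the strains, where 6.67% of all genes were called, 35 were tested, 2 were called higher in BFMI, Mup5 and Mup-ps4, and 3 lower, Mup-ps8, Mup-ps19 and Mup-ps20. Mup5 was at 16.5 and 19.9 CPM in the BFMI male and female and at 1.79 and 0.671 CPM in the B6N male and female, with F1 males at 7.11 to 12.9 CPM in between. Its log2 fold change of 3.92 ± 0.37 (SE) had an adjusted p of 1.53e-04, the smallest of all Mup entries in that comparison. Mup-ps8 was at 1.06 and 1.92 CPM in BFMI and 6.52 and 3.6 CPM in B6N, and Mup-ps20 was at 2.77 CPM in the B6N male and under 0.1 CPM in the other 3 inbred animals. In the F1 males Mup-ps20 was at the low levels of 0.156 to 0.28 CPM in matBFMI and 0.452 to 2.11 CPM in patBFMI. Its log2 fold change there was -2.53 (adjusted p 0.153, edgeR), and the study listed it among genes lower in matBFMI. Mup-ps16 was the only Mup entry called in the mid-parent comparison, at a log2 fold change of 1.5 and levels of 0.593 to 3.64 CPM.

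Genes of the signals that drive Mup expression were taken from a list of 25 genes of hormone signalling and of liver transcription factors, of which 24 were tested in each comparison. Cish, a STAT5 target that damps cytokine signalling, was at 10.1, 4.74 and 5.94 CPM in matBFMI and at 0.708, 0.939 and 2.04 CPM in patBFMI (adjusted p 0.0674, edgeR). Trim24 and Stat5b had log2 fold changes of 0.48 and -0.41 and adjusted p of 0.324 and 0.34. The F1 groups did not overlap in Cish and Stat5b, and in Cish the direction was opposite to that of the Mup genes. Between females and males Cux2, a female-specific liver repressor, rose by 3.81 and Trim24 by 1.57 on the log2 scale in females. The value of Zhx2, a regulator of liver genes, was -0.31 there, with an adjusted p of 0.52 from edgeR. Between strains 3 of the 24 were called, against 6.67% of all genes, and they are named after their values were seen. Socs2, another STAT5 target, was at 3.08 and 5.32 CPM in the BFMI male and female and at 57.1 and 48.2 CPM in B6N (log2 fold change -3.70, adjusted p 0.00171). Onecut1, a liver transcription factor, was lower in BFMI, at -2.13 (adjusted p 0.0223), while Stat5a was higher, at 0.71 (adjusted p 0.0248).

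Other male-biased liver genes were taken from a list of 13, all tested. Of these, the study itself had reported Selenbp2, Cyp7b1 and Egfr as lower in matBFMI from the same F1 males. Counts over the list in the F1 comparison are therefore not independent of those earlier results. In the F1 males 0 were called, 11 had a log2 fold change below 0, against 51.1% of all genes, 7 had an unadjusted p under 0.05 with lower counts in matBFMI, against 4.7% of all genes, and the median log2 fold change was -0.39. Selenbp2, a selenium-binding protein, was at 365.3, 261.3 and 204.7 CPM in matBFMI and at 894.7, 784.5 and 574.3 CPM in patBFMI, with an adjusted p of 0.0668. Gstp1, Egfr and Cyp7b1, which encode a glutathione transferase, the epidermal growth factor receptor and an oxysterol hydroxylase, had log2 fold changes of -0.92, -0.98 and -1.26 and adjusted p of 0.0564, 0.137 and 0.158. In females all 13 had a log2 fold change below 0, against 45.3% of all genes, with a median of -1.89. Of the 13, 4 were called lower, against 0.245% of all genes. These were Cyp2d9, C6, Gstp1 and Selenbp2, lower by 3.22, 2.77, 2.40 and 1.62 on the log2 scale. All 18 female-biased genes had a log2 fold change above 0 in females, with a median of 3.77. Of the 18, 9 were called higher, against 0.31% of all genes, among them Sult3a1, Cyp17a1, Cyp2a4 and Cux2 at 7.86, 2.50, 4.23 and 3.81. In the F1 males 15 female-biased genes were tested and 0 were called. Of the 15, 4 had an unadjusted p under 0.05 and higher counts in matBFMI, against 5.14% of all genes, and the median was 0.57. These 4 were Cyp17a1, Cyp2a4, Cyp3a16 and Cyp3a44, and the F1 groups overlapped in all but Cyp17a1. Cyp3a16 was at only 1.09 to 2.99 CPM in matBFMI and 0.688 to 1.11 CPM in patBFMI. Cyp3a44 was at 3.21 to 8.39 CPM and 1.93 to 3.75 CPM, and both were highest in matBFMI 1.

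Relatives of the Mup genes were 10 other lipocalins, of which 9 were tested, and 0 were called either between the F1 groups or between the sexes. Their median log2 fold changes were -0.08 and -0.0024. In the F1 males the smallest p were those of Apom, a carrier of sphingosine phosphate, at -0.36 (adjusted p 0.258), Ptgds at -1.02 (0.539), Orm2 at 0.20 (0.581) and Lcn2 at -0.31 (0.816). Between the sexes they were those of Orm3 at 1.56 (adjusted p 0.15), Apom at 0.29 (0.688), Rbp4 at -0.14 (0.956) and Ptgds at 0.47 (0.989). Between the strains 3 of the 9 were called, Orm3 and Lcn2 higher in BFMI, at 3.52 and 2.87, and Apom lower, at -0.98, and 2 were called in F1 males against the mid-parent level, Lcn2 at -3.29 and Orm2 at -0.49. These too were named after their values were seen, where 6.67% and 2.05% of all genes were called.

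The genes most like the 9 were sought among 13034 genes outside the Mup family with a mean of at least 1 CPM, by the Pearson correlation of log2(CPM + 1). Over the 10 libraries the closest to the summed CPM of the 9 were Ces3a, a carboxylesterase, at r = 0.979, Slco1a1, an organic anion transporter of male liver, at 0.973, Ilf2 at 0.955, Serpina3k at 0.949 and Phyh at 0.947. Ces3a was at 1001 CPM in the B6N female, at 1259 to 1818 CPM in the other inbred animals and matBFMI, and at 1831 to 2039 CPM in patBFMI, so that the B6N female was lowest and the patBFMI males highest, as in the Mup genes. Over the 6 F1 males the closest to Mup20 were Rpl12 at r = 0.994, Cyp7b1 at 0.993, Stk17b at 0.992, Zfp330 at 0.992 and Selenbp2 at 0.991. These correlations were chosen as the highest of many, rest on few animals that share lanes and groups, and are given as a description.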

How the data were processed

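Liver RNA from 10 mice was sequenced in paired-end runs. The deposited counts were raw reads per Ensembl gene that the authors obtained in union mode with the GRCm38 annotation after trimming with Trimmomatic 0.32 and removal of duplicates with Picard 1.99. The submitters' processing notes name Bowtie2 2.2.6 and TopHat2 2.10 for alignment, whereas the study's text names BWA. The authors also deposited RPKM values computed after quantile normalization. The sources also differ on polyA selection or ribosomal RNA depletion. Strandedness and the handling of reads with several places are not given in the sources used here. A further 3 columns were not used, since no sample here matches them.

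Counts were scaled by TMM and tested in R 4.3.3 with edgeR 4.0.16 (quasi-likelihood), on genes with at least 10 counts in 3 of the 6 F1 libraries, or in 2 of all 10 for a fit of group plus sex. RPKM were tested as log2(RPKM + 1) or log2(RPKM + 0.1) with limma 3.58.1, and DESeq2 1.42.0 was an alternative. The fits were tested on simulated data. F1 fold changes come from the 6-library fit, and printed CPM from scaling over all 10. Samples were grouped by their labels. Offspring numbers did not pair the F1 males. Coding sequences were aligned with MAFFT 7.526. Named genes were the 9 genes, other Mup entries called or highest in mean CPM, up to 4 genes per list with the smallest p in the F1 and in the sex comparison, and the 5 genes most alike. The members and lists were chosen with earlier results of these data known. 1 listed gene is not reported here.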

Additional observations from a re-analysis of the deposited data

Results flagged for a closer look

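The pseudogene Mup-ps4 passed the threshold for an interaction of strain and sex in a fit with 1 library per strain and sex. It was at 2.81 CPM in the B6N male and 1.28 CPM in the B6N female, and at 4.95 CPM in the BFMI male and 20.1 CPM in the BFMI female. The log2 interaction of strain and sex was 3.16 ± 0.30 (SE), with an adjusted p of 0.0219 from edgeR. The spread in that test came from the F1 males alone, so it has no replicate of any strain and sex.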

How the results depend on the processing

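In the F1 comparison 0 of the 9 genes were called, against 8 without a filter on low counts, 7 by DESeq2 and 6 with offspring number as a replicate block. The correlations of deviations between same-numbered offspring were 0.438, 0.0389 and 0.249, so that the numbers were not taken as pairs. Between the strains 1 was called, against 3 with library size only, 4 without a filter, 3 by DESeq2, 0 on RPKM with either pseudocount and 0 to 3 with 1 library left out. Between the sexes 2 were called, against 8 without a filter, 5 by DESeq2 and 1 to 5 with 1 library left out. In the mid-parent comparison 0 were called, against 1 without a filter and 0 to 1 with 1 library left out, and for the interaction 0, against 6 without a filter, 5 by DESeq2 and 0 to 1 with 1 library left out. The fit without a filter put no uncertainty on the prior spread, and its p-values are to be read with that limit. For this and the other differences between settings the cause was not tested. The ratio of the summed counts, 0.648, was 0.854 on RPKM and 0.575 to 0.729 with 1 library left out.

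Signs turned as follows. On RPKM, Mup3 was at 0.54 between the F1 groups and -0.02 in the mid-parent comparison, and Mup11 at -0.06 between the strains. With 1 library left out, the strain values ran from -0.51 to 0.25 in Mup3, with those above 0 lacking a male, and, with those below 0 lacking a female, from -0.51 to 1.01 in Mup11, -1.05 to 1.66 in Mup7 and -0.68 to 1.28 in Mup17. Among males only these 3 were at -0.51, -1.04 and -0.68. The sex values ran from -0.97 to 0.04 in Mup10 and -1.95 to 0.02 in Mup17, above 0 without a B6N animal. Mid-parent values ran from -0.22 to 1.16 in Mup1, -0.28 to 0.48 in Mup3, -0.69 to 2.02 in Mup7, -0.12 to 0.89 in Mup10, -0.31 to 1.21 in Mup11, -0.29 to 1.31 in Mup12 and -0.28 to 1.68 in Mup17, below 0 without the BFMI male, and from -1.69 to 1.3 in Mup20 and -0.40 to 0.10 in Mup21, above 0 without the B6N male. The precision was limited by the number of animals and by shared sequence.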
